A study of Mus musculus with 12 samples.

Results

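The response of the lung to injurious ventilation was compared between GADD45-/- and wild type mice as a difference of differences, which is the interaction of genotype and treatment. For each gene the change from SB to ventilation in wild type lungs was subtracted from the same change in GADD45-/- lungs, and the result is called the interaction here. All 12 of the 12 arrays of the study entered it, 3 in each of 4 groups. By the sample titles these were SB and VILI mice of the wild type and SB and VILI mice of the GADD45-/- genotype. VILI is ventilator-induced lung injury, and those mice were ventilated for 4 hours with breaths of 30 ml/kg, 65 to the minute. All mice were 8 to 12 weeks old. SB is not spelled out in the labels, and the design text calls the wild type SB group the control. Some labels of the ventilated knockout mice shorten the genotype to GADD-/-, and the series title names the gene as Gadd45a. The labels say of the knockout only that the gene is missing, so loss in the whole animal and its effects during development cannot be set apart here. The sources used here do not state strain, sex, hour of collection or hybridisation batch, and the label that calls every sample a control animal was not used.

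Overstretching of the lung by large breaths is known to damage the alveolar wall, to switch on stress and inflammatory genes in epithelium, endothelium and macrophages, and to draw neutrophils into the airspaces. Gadd45a is a small nuclear protein induced by DNA damage and other stress, which binds cell cycle proteins and the kinase Map3k4 upstream of the p38 and JNK kinases. An interaction above 0 means that the change after VILI was more positive in GADD45-/- lungs, which is a larger rise for a gene that rises and a smaller fall for a gene that falls. The terms stronger and weaker are used below for genes called for the VILI change averaged over both genotypes. They mean that the change in GADD45-/- lungs was larger or smaller in the direction of the averaged change. Some of these genes changed little in wild type or in GADD45-/- lungs.

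The values are deposited log2 expression, so 1 unit is a 2-fold change. Array medians lay between 4.37 and 4.59, and arrays of a group correlated at 0.963 to 0.995 over the genes tested. Replicate 3 of GADD45-/- SB and replicate 3 of GADD45-/- VILI stood apart from the other arrays on the second principal component (25.2% of the variance), with mean B cell marker levels of 9.75 and 10.4 against 5.88 to 8.10 elsewhere. Lung identity was clear on every array, for the type II cell surfactant gene Sftpc read 15.12 to 15.55 and the club cell gene Scgb1a1 read 15.52 to 15.86. Gadd45a itself, measured by 1 probe set, read 8.62 to 10.33 on wild type arrays and 4.58 to 6.15 on GADD45-/- arrays.

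No gene passed the test of the interaction. Of 10996 genes tested with limma, 0 had an adjusted p below 0.05 (0% called), and the smallest adjusted p was 0.9999. At an unadjusted p below 0.05 there were 288 genes (2.62%), which is a smaller share than the threshold itself would give over genes with no interaction, 223 of them with a positive (2.03%) and 65 with a negative interaction (0.591%). The smallest unadjusted p was 0.000326, at Lrmda. Each gene discussed below with an interaction therefore had an adjusted p of at least 0.9999, and its unadjusted limma p is given only to order the genes.

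The absence of calls has to be read with the precision of 3 arrays per group. The median SE of the interaction was 0.249, against 0.176 for the VILI change within 1 genotype. The 95% interval reached 0.545 log2 units to either side of the estimate for the median gene, 0.302 for the gene at the 5th percentile and 1.27 for that at the 95th. A lone gene would have needed an unadjusted p of 4.55e-06 to pass, which for the median gene corresponds to an interaction of about 2.02. For 8256 genes (75.1%) the whole interval lay within 1 unit of 0, so that a difference in response of more than 2-fold lay outside it. The interaction estimate itself exceeded 1 for 86 genes and lay below -1 for 35.

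To ask how the ventilation response as a whole compared, responders were taken as the genes called for the VILI change averaged over both genotypes, an estimate that is uncorrelated with the interaction when all groups have the same size. There were 1958 of them (17.8% of the genes tested), 926 higher (8.42%) and 1032 lower (9.39%) after VILI. In 1955 of the 1958 (99.8%) the change had the same sign in both genotypes. Choosing genes by the averaged change favours a shared sign, so this count is no separate evidence of a shared response. The mean change in the direction of the response was 0.652 in wild type and 0.689 in GADD45-/- lungs, a mean interaction of 0.0368 against a spread of 0.0924 (SD) between arrays of a group. Averaged over all responders, the difference between genotypes was below the spread between arrays. Leaving out single arrays moved it past that spread and past 0. It was 0.162 without GADD45-/- VILI replicate 1 and -0.0456, -0.0166, -0.0155 and -0.0094 without wild type SB replicate 1, wild type VILI replicate 3, wild type SB replicate 2 and GADD45-/- VILI replicate 2, and -0.0116 with array weights. In these fits the groups count unequally, so the averaged change is correlated with the interaction. Part of such shifts can come from how responders were chosen, which was not tested.

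**Figure D1:**
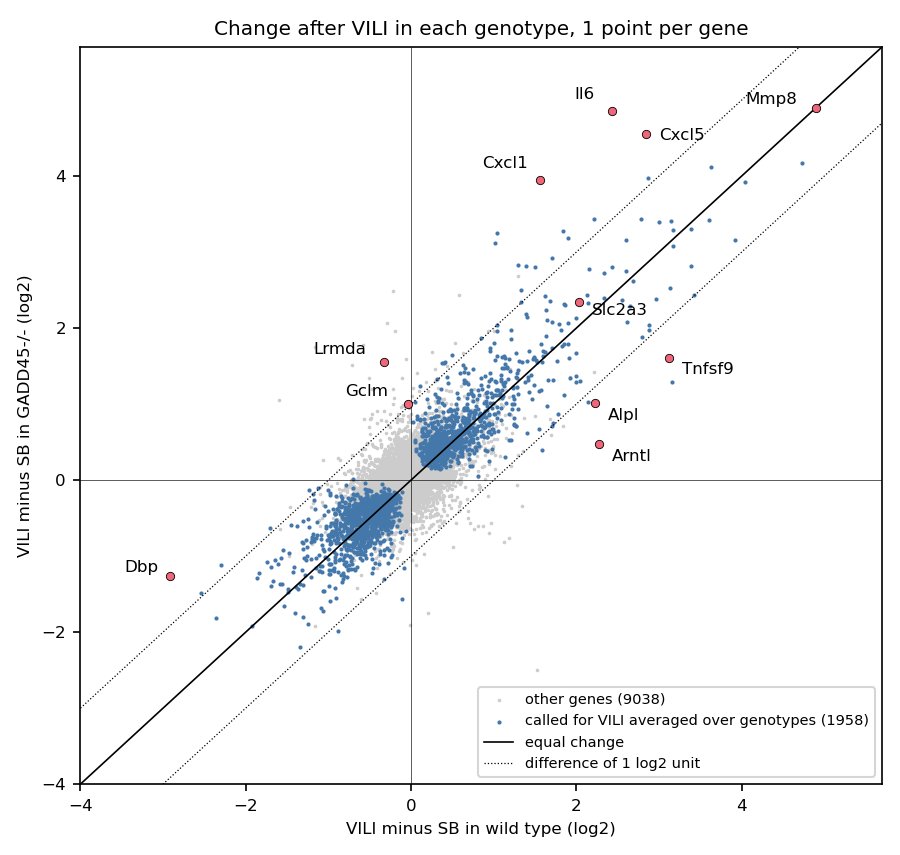
Change after VILI (log2) in wild type lungs on the x axis and in GADD45-/- lungs on the y axis, 1 point per gene, with the 1958 responders in blue and selected genes in red; the solid line is an equal change and the dotted lines a difference of 1 unit. Most responders lie between the dotted lines, and genes outside them, such as Cxcl1 and Il6 above and Tnfsf9 and Arntl below, did not pass the test of the interaction.

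Counted gene by gene, 1089 responders (55.6%) changed more in GADD45-/- lungs and 869 changed less. That share was on the other side of 50% without wild type SB replicate 1 (44.9%), wild type SB replicate 2 or wild type VILI replicate 3 (48.4% each), and with array weights (48.3%), and it reached 69% without GADD45-/- VILI replicate 1. Among genes higher after VILI, 605 of 926 (65.3%) had the larger change in GADD45-/- lungs, and among genes lower after VILI 484 of 1032 (46.9%) did. Both shares lean towards a positive interaction, and so did the whole table, where 60.5% of all genes had an interaction above 0 with a median of 0.0583. The lean differed between scalings. With quantile normalization 58.9% of all genes were positive, the stronger share was 64% (516 of 806) for genes higher and 49.5% (688 of 1389) for genes lower after VILI, and the genes at an unadjusted p below 0.05 split into 214 positive and 78 negative. After the arrays were centred on a common median, 46.2% of all genes were positive, the stronger share was 50% (470 of 940) for genes higher and 59.4% (606 of 1020) for genes lower after VILI, and the genes at an unadjusted p below 0.05 split into 108 positive and 156 negative. Without wild type SB replicate 2 the share for genes higher after VILI was 49.5%, with responders chosen anew from groups of unequal size. A larger share of stronger induction in GADD45-/- lungs was thus seen with quantile normalization and not with centred arrays.

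Genes that respond modestly were compared with some precision and the strongest responders were not. Of the 1958 responders, 1439 (73.5%) had an interval within 1 unit of 0, close to the 75.1% of all genes. For genes that rose by less than 0.5 on average, 386 of 401 (96.3%) were bounded in this way, and for those that fell by less than 0.5, 466 of 478 (97.5%). Between 1 and 2 units the counts were 21 of 137 (15.3%) for rising and 19 of 78 (24.4%) for falling genes. Only 1 of the 52 genes that rose by more than 2 units was bounded (1.92%), and none of the 3 that fell by as much. The half-width of the interval grew over the same bins of rising genes from 0.402 to 1.53. A gene with a small averaged change is called only if its error is small, so part of this trend follows from how responders were chosen. Among responders, those with the largest fold changes had the widest intervals, and their equality or difference between genotypes is least settled.

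Being called in 1 genotype and not in the other did not by itself show a difference. VILI changed 290 genes in wild type (2.64%) and 491 in GADD45-/- lungs (4.47%), of which 164 were called in both, 56.6% of the first and 33.4% of the second. Of the 327 genes called in GADD45-/- lungs only, 320 changed in the same direction in wild type, 202 had an interaction bounded within 1 unit and 63 had an unadjusted interaction p below 0.05. Of the 126 called in wild type lungs only, 123 changed in the same direction in the knockout, 71 were bounded and 25 had an unadjusted p below 0.05. The interaction was called for 0 genes of either set. Over all genes tested, 75.1% were bounded and 2.62% had an unadjusted p below 0.05. Both sets thus held a smaller share of bounded genes and a larger share with a small p. Choosing genes by a call in 1 genotype only favours larger interactions, so these shares are no separate test.

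The acute cytokines and chemokines, signals that injured lung cells send to recruit neutrophils, had the highest median interaction of the gene lists described here. Of 20 genes in the list 8 were measured and 7 of them were called higher for the averaged VILI change, while 0 passed for the interaction. A gene needed only 3 of 12 arrays above the array median to be measured. Il6 had such arrays only after VILI, and Cxcl1, Cxcl2 and Cxcl5 lay below the array median on most SB arrays. They passed this filter only with their VILI arrays counted. The place of the list thus rests largely on genes admitted through groups where they were high. The interaction was positive in 6 and negative in 2, with a median of 1.27 against 0.0583 over all genes, and the median change was 2.14 in wild type and 3.61 in GADD45-/- lungs. Neutrophil markers, read as the mean of 18 genes, were 9.02, 9.43 and 8.69 on the wild type VILI arrays and 8.77, 10.11 and 9.15 on the GADD45-/- VILI arrays, and their part in the cytokine values was not tested. The median fell to 0.593 without both GADD45-/- replicate 3 arrays, to 0.721 without wild type SB replicate 2 and to 0.801 without GADD45-/- SB replicate 3. It fell to 0.0796 when only genes above the array median on all 12 arrays were kept, which leaves out Cxcl1, Cxcl2, Cxcl5 and Il6.

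Cxcl1, a chemokine that attracts neutrophils through the receptor Cxcr2, had the largest difference among the cytokines relative to its error. It read 4.25, 4.38 and 4.19 on the wild type SB arrays, 5.77, 5.49 and 6.27 after VILI, 3.01, 4.24 and 4.58 on the GADD45-/- SB arrays, and 7.81, 8.36 and 7.50 after VILI. The ventilated knockout arrays all lay above the ventilated wild type arrays, and the SB groups overlapped. Cxcl1 rose by 1.57 in wild type (adjusted p = 0.0492 in limma) and by 3.94 in GADD45-/- lungs (adjusted p = 0.00155). The interaction was 2.38 (SE 0.52, 95% interval 1.24 to 3.52, unadjusted p = 0.000751). Leaving out 1 array at a time gave 1.91 to 2.70, and a second probe set of the gene gave 1.56. The difference stood on the ventilated side, where GADD45-/- was higher by 2.04 (adjusted p = 0.0817), and not in SB, where it was lower by 0.33 on the log2 scale (adjusted p = 0.796).

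Il6, the fever and acute phase cytokine, spread more widely. Its values were 2.16, 3.61 and 2.21 in wild type SB, 3.71, 4.44 and 7.14 in wild type VILI, 2.18, 2.33 and 2.11 in GADD45-/- SB, and 5.84, 7.88 and 7.45 in GADD45-/- VILI. One ventilated wild type array lay among the ventilated knockout arrays, so those groups overlapped. The interaction was 2.43 (SE 1.11, interval -0.01 to 4.86, unadjusted p = 0.0508), and the rise passed the test in GADD45-/- lungs (4.86, adjusted p = 0.0108) with a change of 2.43 in wild type that did not (adjusted p = 0.113). Without single arrays the interaction ran from 1.73 to 3.45.

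Cxcl5, a chemokine made mainly by epithelium, read 3.53, 3.62 and 3.70 in wild type SB and 6.36, 5.93 and 7.11 after VILI, and 3.50, 3.48 and 6.20 in GADD45-/- SB and 7.92, 9.72 and 9.21 after VILI. The ventilated groups did not overlap, and GADD45-/- SB replicate 3 was already as high as a ventilated wild type lung. Its interaction was 1.71 (interval -0.36 to 3.78). Cxcl2, a close relative of Cxcl1, read 2.08, 3.12 and 2.99 and then 5.25, 6.47 and 5.09 in wild type, and 2.81, 4.45 and 2.62 and then 6.57, 7.22 and 8.02 in GADD45-/- lungs, an interaction of 1.10 (interval -0.60 to 2.81). The ventilated groups again did not overlap, by a small margin, while the SB groups did.

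Other members of the list varied. Il1b, the cytokine released by the inflammasome, rose in both genotypes with nearly the same change, 2.69 in wild type and 2.63 in GADD45-/- lungs, and an interaction of -0.06 whose interval, -1.46 to 1.34, still allows more than a 2-fold difference either way. Nampt, an NAD-synthesising enzyme also secreted as a cytokine, had an interaction of 0.22 with a bounded interval of -0.26 to 0.70, and its ventilated arrays did not overlap, at 10.65, 10.71 and 10.60 in GADD45-/- against 10.25, 10.25 and 10.52 in wild type. Ptgs2, the inducible cyclooxygenase, had 1.43 (interval -0.86 to 3.72), and its wild type SB value was 11.10 on replicate 2 against 8.23 and 8.60 on the other 2. Il33, an alarmin of epithelial nuclei, had -0.26. On wild type SB replicate 2 the mean of the 29 immediate early genes was also high, 9.88 against 8.73 and 8.81 on the other wild type SB arrays. In the lower reach of the scale fold changes are approximate, and Cxcl1, Cxcl2, Cxcl5 and Il6 all had their lowest group mean below the array median.

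The sequences just upstream of the start of 3 of these genes are shown because NF-kB, the transcription factor that switches on many cytokine genes in stretched lung, has letters in common with them. They come from RefSeq on assembly GRCm38.p6, plus strand, 250 bases ending just before the start, at chr5:90890995-90891244 for Cxcl1, chr5:90903649-90903898 for Cxcl2 and chr5:30012864-30013113 for Il6. Capitals mark matches on either strand to GGGAA followed by any 3 bases and CC, a form of the NF-kB motif, or to TGANTCA, a form of the AP-1 motif.
Cxcl1: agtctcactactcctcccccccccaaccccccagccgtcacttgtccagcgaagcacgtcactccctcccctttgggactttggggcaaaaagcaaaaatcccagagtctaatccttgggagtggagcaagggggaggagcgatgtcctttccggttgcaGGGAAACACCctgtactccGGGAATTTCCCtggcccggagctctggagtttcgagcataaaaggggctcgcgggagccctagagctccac
Cxcl2: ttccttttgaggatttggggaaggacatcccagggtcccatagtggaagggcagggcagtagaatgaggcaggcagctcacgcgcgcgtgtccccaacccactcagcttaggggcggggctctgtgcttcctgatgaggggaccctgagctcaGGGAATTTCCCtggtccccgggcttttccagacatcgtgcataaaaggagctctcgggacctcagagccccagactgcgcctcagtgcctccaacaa
Il6: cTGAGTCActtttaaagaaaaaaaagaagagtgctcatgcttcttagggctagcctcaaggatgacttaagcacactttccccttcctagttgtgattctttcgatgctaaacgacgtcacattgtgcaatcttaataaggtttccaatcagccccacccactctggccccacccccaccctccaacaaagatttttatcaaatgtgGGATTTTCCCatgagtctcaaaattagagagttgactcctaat
Cxcl1 carries 2 separate NF-kB stretches, Cxcl2 carries 1, and Il6 carries 1 together with 1 AP-1 match, with no overlap between the motifs. In windows of 300 bases, from 250 before to 50 after the start, the NF-kB letters were in 3 of the 7 cytokine genes that had a promoter (42.9%), in 8.7% of genes higher and 5.28% of genes lower after VILI, and in 6.86% of all genes tested. The AP-1 letters were in 7.38% and 3.36% of those responders and in 4.87% of genes tested. Over the whole table of 27025 genes the shares were 5.67% for NF-kB and 7.93% for AP-1. Of the 10 responders most stronger in GADD45-/- lungs 7 had a promoter, and 1 of these, Cxcl1, held the NF-kB letters, while 0 of the 9 with a promoter among the 10 most weaker did.

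The NF-kB feedback and adhesion genes, which include inhibitors that NF-kB itself induces, had a median interaction of 0.42 over 18 measured genes. It was positive in 14, with 7 genes called higher and 1 lower for the averaged change and 0 called for the interaction. Irak3, a brake on Toll-like receptor signalling, had 0.80. Birc3, a ubiquitin ligase that restrains cell death, had 0.46 with a second probe set at 0.02. Cd40, a costimulatory receptor, had 0.39 with further probe sets at 0.42 and -0.14, while the classical targets Nfkbia and Icam1 had -0.04 and -0.11. The list median was 0.21 without wild type SB replicate 2 and 0.19 without GADD45-/- VILI replicate 3.

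The interferon response list had a median of 0.31 over 15 genes, 13 of them positive, 3 called higher after VILI on average and 0 called for the interaction. Cxcl10, an interferon-induced chemokine for T cells, read 3.99, 4.96 and 5.38 in wild type SB, 5.81, 5.87 and 5.67 in wild type VILI, 5.27, 4.65 and 5.36 in GADD45-/- SB, and 8.06, 6.40 and 10.19 in GADD45-/- VILI. Each ventilated knockout array was above each ventilated wild type array, and GADD45-/- VILI replicate 3 was far above the rest. The interaction was 2.11 (interval -0.12 to 4.34), and from 1.12 to 3.02 without single arrays. Irf7, a transcription factor of the interferon system, had 0.94 (unadjusted p = 0.0459) with 5.41, 6.08 and 6.88 in the ventilated knockout, and its other groups lay between 5.05 and 5.65.

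Ifit1, an interferon-induced RNA-binding protein, was among the 10 responders most stronger in GADD45-/- lungs, and for a different reason in the numbers. It read 7.81, 7.79 and 8.10 in wild type SB, 8.29, 8.00 and 7.71 in wild type VILI, 7.07, 6.69 and 7.76 in GADD45-/- SB, and 8.24, 8.53 and 8.49 in GADD45-/- VILI. The GADD45-/- SB arrays lay below all wild type SB arrays, and the ventilated groups overlapped. The interaction of 1.14 (interval 0.38 to 1.90, unadjusted p = 0.00683) was made of a gap of -0.72 in SB and 0.42 after VILI.

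Oxidative stress genes gave the same picture of a lower start. The 19 measured genes had a median interaction of 0.38, 15 positive, with 10 called higher and 1 lower after VILI on average and 4 at an unadjusted p below 0.05. The median change was 0.32 in wild type and 1.002 in GADD45-/- lungs, and the median gap between genotypes in SB was -0.27. Gclm, the modifier subunit of the enzyme that begins glutathione synthesis, read 10.38, 10.07 and 10.04 in wild type SB, 10.09, 10.19 and 10.09 in wild type VILI, 9.52, 9.35 and 9.87 in GADD45-/- SB, and 10.25, 11.04 and 10.47 in GADD45-/- VILI.

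The knockout SB arrays of Gclm lay below all other arrays, and the ventilated knockout arrays lay above the ventilated wild type ones. Its interaction was 1.04 (SE 0.27, interval 0.44 to 1.65, unadjusted p = 0.0028), with a rise of 1.002 in GADD45-/- (adjusted p = 0.0194) and a change of -0.04 in wild type, and a second probe set gave 0.77. The catalytic subunit Gclc had 0.63 (unadjusted p = 0.0303) and the glutathione peroxidase Gpx2 had 0.71 (unadjusted p = 0.0168). For Gclc the ventilated groups overlapped, at 13.89, 14.14 and 14.27 in wild type and 13.91, 14.26 and 14.22 in GADD45-/-, and the SB groups did not, at 13.43, 13.72 and 13.15 against 12.84, 13.14 and 12.52.

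Heme oxygenase Hmox1 (1.31, interval -0.43 to 3.05) and the cystine transporter Slc7a11 (1.23, interval -0.22 to 2.67) had larger estimates and wide intervals. Extracellular superoxide dismutase Sod3 went the other way, at -0.69 (unadjusted p = 0.0141), from 11.28, 11.31 and 10.96 in ventilated wild type to 10.75, 10.63 and 10.18 in ventilated knockout lungs, with a second probe set at -1.44. The core of the antioxidant response element, TGANNNNGC, lay in 42.9% of the promoters of genes tested and in 41.4% of the whole table, so its presence separates few genes.

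Hbegf, a growth factor shed from stretched cells, was the member of the stretch, injury and coagulation list with the largest interaction. Its values were 9.93, 10.22 and 9.90 in wild type SB, 10.36, 10.81 and 10.77 in wild type VILI, 9.08, 9.24 and 8.84 in GADD45-/- SB, and 10.70, 10.81 and 10.21 in GADD45-/- VILI. The knockout SB arrays lay below all others, and both genotypes reached the same level after VILI. It rose by 1.52 in GADD45-/- lungs (adjusted p = 0.00355) with a change of 0.63 in wild type (adjusted p = 0.0894), and the interaction was 0.89 (interval 0.32 to 1.46, unadjusted p = 0.00554). The list as a whole had a median of 0.27 over 14 genes, 10 positive, with 8 called higher and 3 lower after VILI. That median was 0.09 without both GADD45-/- replicate 3 arrays. Krt8, an injured epithelium keratin, had 0.50, and thrombomodulin Thbd had -0.37.

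**Figure D2:**
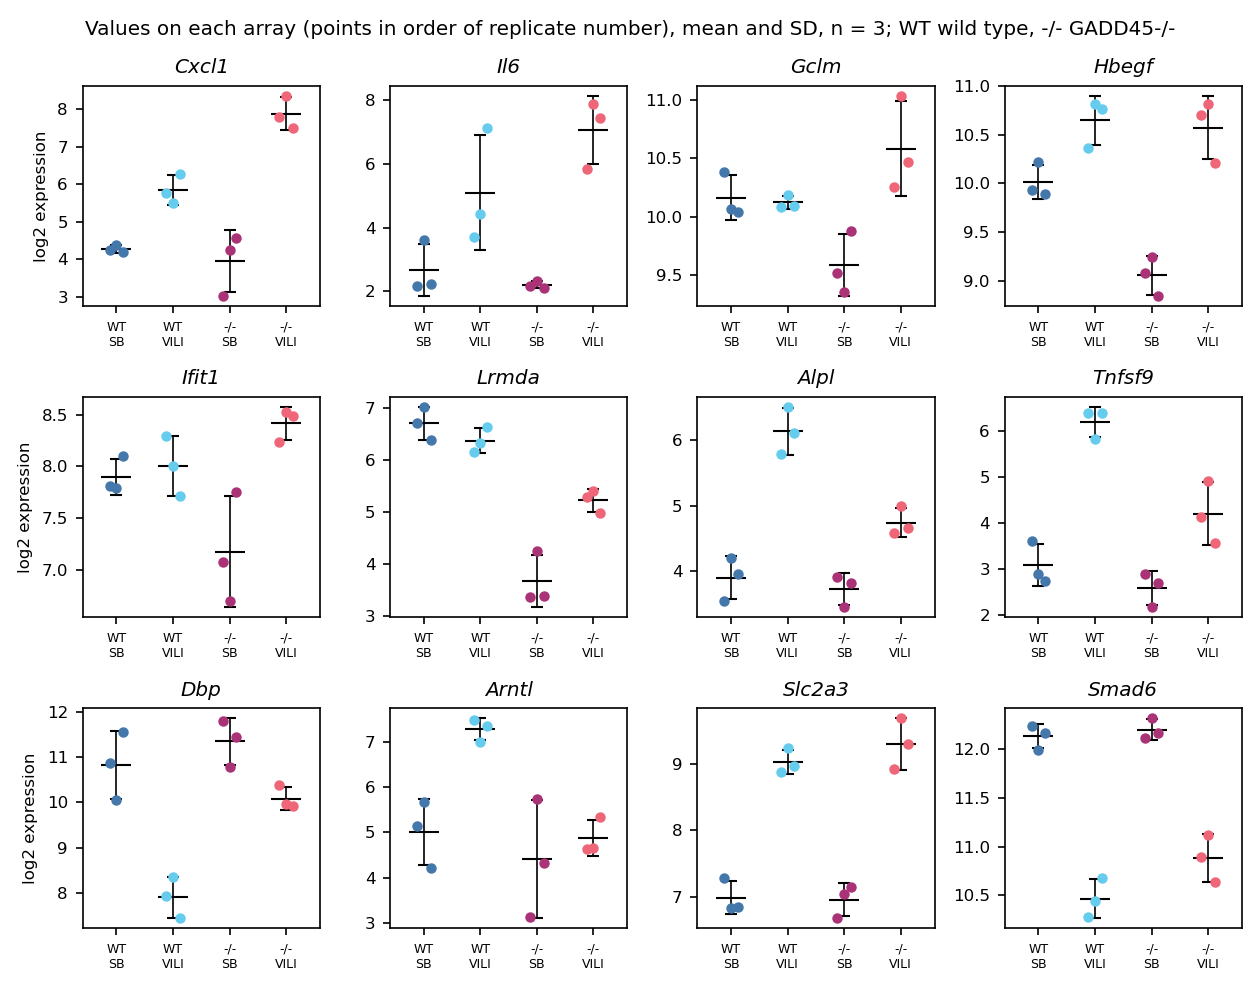
Log2 expression on each of the 12 arrays for 12 genes, by group, with bars for the mean and SD (n = 3); the vertical axes differ between genes and do not start at 0. Cxcl1 separates the genotypes after VILI and Il6 does so apart from 1 wild type array. Gclm, Hbegf, Ifit1 and Lrmda separate them in SB, and Gclm and Lrmda also do so after VILI. Alpl, Tnfsf9, Dbp and Arntl change less in GADD45-/- lungs, and Slc2a3 and Smad6 change about equally.

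The side on which the genotypes differed was a general feature of the positive interactions. Of the 223 genes with a positive interaction at an unadjusted p below 0.05, 213 were lower in GADD45-/- SB than in wild type SB and 192 were higher in GADD45-/- VILI than in wild type VILI. The gap in SB was larger than the gap after VILI in 144 of the 223, with medians of -0.39 in SB and 0.22 after VILI. Of the 65 genes with a negative interaction, 61 were lower in the ventilated knockout and 47 higher in the SB knockout. Over all 10996 genes 6842 were lower in GADD45-/- SB, with a median of -0.061. Since these gaps add up to the interaction, the counts describe where it arose and are no separate test.

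Lrmda, a gene linked to melanocyte differentiation, headed the responders by moderated t. It read 6.72, 7.01 and 6.38 in wild type SB, 6.16, 6.33 and 6.64 in wild type VILI, 3.36, 4.25 and 3.39 in GADD45-/- SB, and 5.30, 5.40 and 4.98 in GADD45-/- VILI. All knockout arrays lay below all wild type arrays, and the ventilated ones came part of the way back. The interaction was 1.89 (SE 0.37, interval 1.07 to 2.70), from a change of -0.33 in wild type and a rise of 1.56 in GADD45-/- (adjusted p = 0.0124), and the gap of -3.04 in SB was itself called (adjusted p = 0.000286), as for 12 of all genes (0.109%). Its GADD45-/- SB arrays lay below the array median, where fold changes are approximate. Over the alternatives its interaction ran from 1.075 to 2.18, and from 1.73 to 2.18 without single arrays. The label of Lrmda as a stronger responder rests on a difference that was present in SB lungs.

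The other responders chosen as stronger were of several kinds. They were picked as the 10 with the largest t in that direction, so their sizes are those of selected genes. Utp20 and Rrp12, both factors of ribosome assembly, had interactions of 0.75 and 1.02. For Rrp12 the difference was on the ventilated side, at 5.57, 6.29 and 6.42 in GADD45-/- against 5.02, 5.13 and 5.38 in wild type lungs. Cyp51, an enzyme of cholesterol synthesis, had 0.77, and N6amt1, a methyltransferase, had 0.97. In both the knockout was lower in SB by 0.60 and 0.88 on the log2 scale. Nrn1, a neuronal membrane protein also made elsewhere, was the gene in this set that went down, at 8.19, 8.30 and 7.65 in GADD45-/- SB and 6.87, 6.71 and 5.87 after VILI, against 7.76, 7.50 and 7.04 and then 7.28, 7.45 and 7.21 in wild type. Its interaction was -1.45 (unadjusted p = 0.00331).

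**Figure D3:**
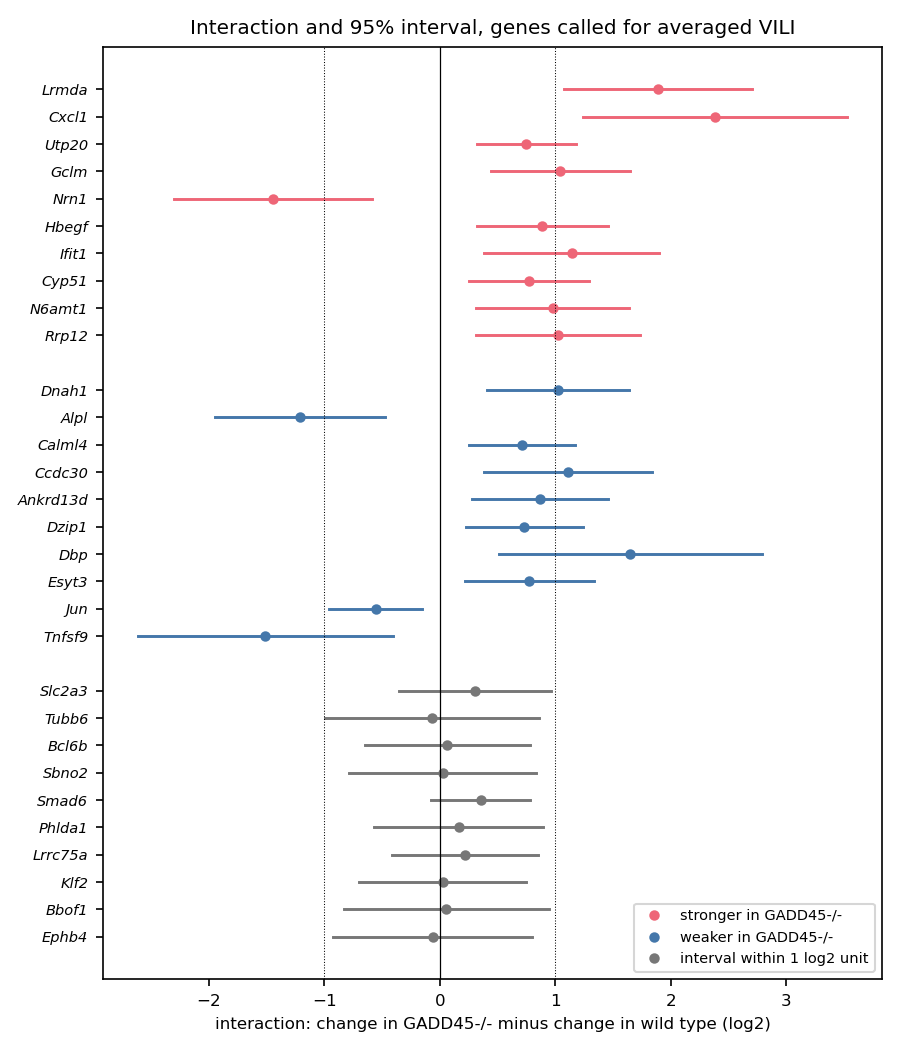
Interaction (log2) with its 95% interval for the 10 responders most stronger in GADD45-/- lungs (red), the 10 most weaker (blue) and the 10 with the largest averaged change whose interval lies within 1 unit of 0 (grey). The red and blue genes were selected for large values and their intervals exclude 0 before adjustment over 10996 genes, while the grey intervals stay between the dotted lines at -1 and 1.

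Among the responders most weaker in GADD45-/- lungs were 3 genes that VILI induces. Alpl, tissue-nonspecific alkaline phosphatase, which neutrophils and type II cells make, read 3.55, 4.20 and 3.96 in wild type SB, 5.79, 6.50 and 6.11 in wild type VILI, 3.91, 3.45 and 3.82 in GADD45-/- SB, and 4.58, 4.99 and 4.66 in GADD45-/- VILI. The SB groups overlapped and the ventilated groups did not, the knockout being lower. Every SB array lay below the array median, so Alpl entered the test through the ventilated arrays. Alpl rose by 2.23 in wild type (adjusted p = 0.00151) and by 1.02 in GADD45-/- (adjusted p = 0.0362), an interaction of -1.21 (SE 0.34, interval -1.95 to -0.48, unadjusted p = 0.00389) that stayed between -1.39 and -1.03 without single arrays.

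Tnfsf9, the ligand of the T cell receptor 4-1BB, read 3.59, 2.89 and 2.73 in wild type SB, 6.38, 5.82 and 6.38 in wild type VILI, 2.88, 2.16 and 2.70 in GADD45-/- SB, and 4.12, 4.92 and 3.55 in GADD45-/- VILI. Its rise was 3.12 in wild type (adjusted p = 0.00209) and 1.61 in GADD45-/- lungs (adjusted p = 0.0287), with no overlap of the ventilated groups. The interaction was -1.51 (interval -2.61 to -0.41, unadjusted p = 0.0115). Every SB array and GADD45-/- VILI replicates 1 and 3 lay below the array median. Tnfsf9 thus entered the test mainly through the ventilated wild type arrays, where it was high. Over the alternatives its interaction ran from -1.87 to -1.13, with an unadjusted limma p of up to 0.0514.

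Jun, the AP-1 transcription factor that JNK phosphorylates, read 12.02, 12.33 and 12.32 in wild type SB, 13.00, 12.91 and 12.98 in wild type VILI, 12.48, 12.36 and 12.83 in GADD45-/- SB, and 12.74, 12.90 and 12.59 in GADD45-/- VILI. It rose by 0.74 in wild type (adjusted p = 0.0206) with a change of 0.18 in GADD45-/- (adjusted p = 0.436), and the interaction was -0.56 (interval -0.96 to -0.15, unadjusted p = 0.0112). Every SB knockout array was above every SB wild type array and every ventilated one below. A second probe set gave -0.25.

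Jun was not typical of its list. The 29 immediate early genes, which cells switch on within minutes of a stimulus, had a median interaction of 0.15 with 21 positive, 13 called higher and 1 lower for the averaged change. That median was -0.21 without wild type SB replicate 2 and -0.02 without both GADD45-/- replicate 3 arrays. Ier3, an early survival gene, had 0.85, the phosphatase Dusp1 had -0.33, and Fos and Egr1 had 0.03 and 0.38.

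The remaining weaker responders were lower after VILI on average with the smaller change in GADD45-/- lungs, and some of them are cilium genes. Dnah1, a dynein motor of cilia, read 5.01, 4.38 and 4.99 in wild type SB, 3.48, 3.69 and 3.84 in wild type VILI, 3.79, 3.79 and 3.78 in GADD45-/- SB, and 3.76, 3.50 and 3.80 in GADD45-/- VILI. The wild type SB arrays alone were high, and the other 3 groups lay together at low values. The fall of 1.12 in wild type was called (change -1.12, adjusted p = 0.0206), and the interaction was 1.02 (unadjusted p = 0.00373). Only the wild type SB arrays exceeded the array median, so Dnah1 entered the test through the group where it was high. Over the alternatives its interaction ran from 0.38 to 1.23, with an unadjusted limma p of up to 0.121.

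Ciliated cell markers as a list had a median interaction of 0.35 over 16 genes, 11 positive and 3 at an unadjusted p below 0.05, with 7 called lower after VILI on average and 0 called for the interaction. The median change was -0.58 in wild type and -0.28 in GADD45-/- lungs, and none of the 16 was higher in GADD45-/- SB than in wild type SB. The list mean was 7.84, 8.34 and 8.18 in wild type SB, 7.43, 7.25 and 7.62 in wild type VILI, 7.76, 7.69 and 7.64 in GADD45-/- SB, and 7.54, 7.09 and 7.27 in GADD45-/- VILI. The knockout SB lungs lay between the wild type SB lungs and the ventilated lungs. Rsph1, a radial spoke protein, had 0.51, and the axonemal dyneins Dnah9 and Dnah5 each had 0.63. In whole lung RNA fewer cells of a type and less RNA per cell cannot be told apart.

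Of the other weaker responders, Dzip1, a basal body protein, had 0.73 with further probe sets at 1.47 and 0.32. Calml4, a calmodulin-like protein, had 0.71, Ccdc30 had 1.11 with another probe set at 0.05, Ankrd13d had 0.86, and Esyt3, a membrane contact protein, had 0.77. Like Dnah1, Ankrd13d exceeded the array median only on the wild type SB arrays, and its interaction ran from 0.41 to 1.01 over the alternatives. Esyt3 went in wild type from 8.14, 8.34 and 8.49 to 7.02, 6.76 and 7.27, and read 7.38, 7.08 and 7.18 and then 6.95, 6.44 and 6.66 in the knockout. As with Dnah1, the gap lay mainly in SB.

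Dbp was the 1 clock gene among the 10 responders named as weaker in GADD45-/- lungs, and of the clock genes given with it Npas2, Hlf, Tef, Per3 and Ciart were chosen after their values were seen. Dbp, an output transcription factor of the circadian clock, read 10.86, 10.05 and 11.54 in wild type SB, 7.93, 8.35 and 7.44 in wild type VILI, 11.80, 10.78 and 11.44 in GADD45-/- SB, and 10.38, 9.95 and 9.92 in GADD45-/- VILI. Each ventilated wild type array was more than 1 unit below each ventilated knockout array, and the SB groups overlapped. Dbp fell in wild type (change -2.91, adjusted p = 0.00427), with a change of -1.26 in GADD45-/- lungs (adjusted p = 0.077), and the interaction was 1.65 (SE 0.52, interval 0.51 to 2.79, unadjusted p = 0.0085) with a second probe set at 1.95.

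Arntl, also called Bmal1, the activator at the core of the clock and opposite to Dbp in phase, had the opposite sign. It read 5.14, 5.67 and 4.21 in wild type SB, 7.49, 7.01 and 7.36 in wild type VILI, 3.13, 5.74 and 4.33 in GADD45-/- SB, and 4.64, 4.65 and 5.34 in GADD45-/- VILI. The ventilated wild type arrays were the highest and all other groups overlapped. Its interaction was -1.80 (interval -3.52 to -0.09, unadjusted p = 0.0407), and its partner gene Npas2 had -1.69 (interval -3.44 to 0.06). The Dbp relatives Hlf and Tef had 1.11 and 0.70, Per3 had 1.17 and Ciart 0.57, while Nr1d2 had 0.48 on one probe set and -0.04 on another.

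Over the whole clock and glucocorticoid list, with 22 genes, 14 interactions were positive, 3 genes were called higher and 6 lower after VILI on average, 0 were called for the interaction, and the median was 0.07. The glucocorticoid targets Fkbp5, Tsc22d3 and Sgk1 had -0.14, 0.06 and -0.18. The sources used here do not state the hour at which lungs were collected, and its part in the clock values was not tested.

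**Figure D4:**
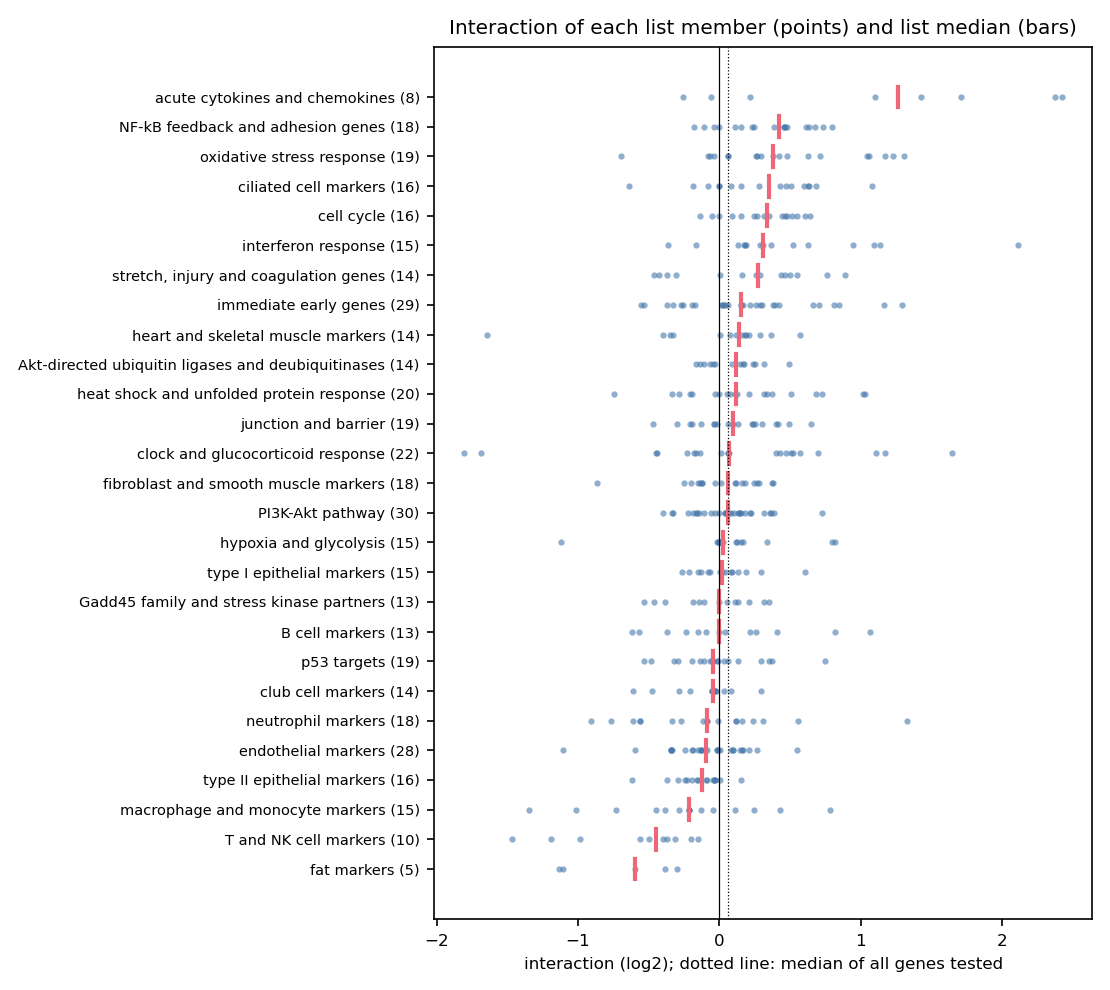
Interaction (log2) of each measured member of 27 gene lists (points) with the list median (red bar); the dotted line is the median of all genes, 0.0583, and the number of measured genes is in parentheses. Acute cytokines have the highest median at 1.27, fat and T and NK cell markers the lowest at -0.60 and -0.45, most other lists lie close to 0, and 0 members of any list were called.

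The small list medians depend on the scaling. With centred arrays the medians of the type I epithelial (-0.06), fibroblast and smooth muscle (-0.02), hypoxia (-0.05), clock (-0.01), PI3K-Akt (-0.02) and Gadd45 (-0.08) lists turned negative, as did that of all genes (-0.02). Over the 25 alternatives the oxidative stress median ran from 0.15 to 0.58 (0.23 without wild type SB replicate 2 and 0.22 without GADD45-/- SB replicate 3), the ciliated one from 0.20 without wild type SB replicate 2 to 0.49, and the interferon one from 0.11 to 0.44, with no change of sign.

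Responses that were equal within 2-fold included several of the larger ones. Slc2a3, the glucose transporter GLUT3 of leukocytes, read 7.28, 6.84 and 6.85 in wild type SB, 8.88, 9.23 and 8.96 in wild type VILI, 6.68, 7.04 and 7.15 in GADD45-/- SB, and 8.91, 9.68 and 9.29 in GADD45-/- VILI. The genotypes overlapped under each treatment, and the interaction was 0.30 (interval -0.35 to 0.96) beside an averaged rise of 2.19 (adjusted p = 2.87e-05). Smad6, an inhibitor of BMP signalling in endothelium, read 12.25, 12.00 and 12.17 and then 10.28, 10.44 and 10.68 in wild type, and 12.12, 12.32 and 12.17 and then 10.89, 11.12 and 10.64 in GADD45-/- lungs. Every ventilated array lay below every SB array, with an interaction of 0.35 (interval -0.08 to 0.78).

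Klf2, the flow-responsive transcription factor of endothelium, fell by nearly the same amount, at -1.49 and -1.47, with an interaction of 0.02 (interval -0.70 to 0.74). The other 7 chosen as the largest averaged changes with a bounded interval were Tubb6, a tubulin, at -0.07, Bcl6b at 0.06, Sbno2 at 0.02, Phlda1 at 0.16, Lrrc75a at 0.22, Bbof1 at 0.06, and Ephb4, a venous endothelial receptor, at -0.06. The bound was not equally firm among the 10. In the 25 alternative analyses the interval passed 1 unit in 21 for Tubb6, in 12 each for Slc2a3 and Bbof1, in 10 for Ephb4, in 8 for Phlda1, in 7 for Sbno2, in 1 for Bcl6b and in 0 for Smad6 and Klf2, and it did so in 1 of 24 for Lrrc75a.

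The fitted changes had opposite signs in the genotypes for 3 of the 1958 responders and for 2780 of the 10996 genes tested (25.3%). Responders were chosen by the averaged change, which leaves few opposite signs among them, so these shares are not compared. The 5 with the smallest interaction p among the genes of opposite sign were Lrmda, Eml2, Ap2b1, Lrig1 and Lig4. Eml2, a microtubule-associated protein, read 7.88, 8.17 and 8.10 in wild type SB, 7.38, 7.37 and 7.79 in wild type VILI, 7.26, 7.49 and 7.31 in GADD45-/- SB, and 7.90, 7.83 and 7.79 in GADD45-/- VILI. The groups crossed, but neither the change of -0.54 in wild type (adjusted p = 0.0756) nor that of 0.49 in GADD45-/- (adjusted p = 0.0852) passed the test, and the interaction was 1.02 (unadjusted p = 0.000397).

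Lrig1, an inhibitor of EGF receptor signalling, had 0.92 with a second probe set at 0.82. Lig4, the ligase of DNA double-strand break repair, had 1.28, with 6.29, 5.50 and 5.60 in GADD45-/- SB against 6.34 to 7.08 on all other arrays. Ap2b1, a subunit of the clathrin adaptor, had 1.24 on the probe set used and -0.03 on another, so the value holds for 1 probe set only.

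Leukocyte markers showed how the cellular response compared. Neutrophil markers, of which 18 of 26 were measured, had 15 genes called higher for the averaged change and a median interaction of -0.09 with 7 positive and 11 negative. The median changed sign in 5 of the 25 alternatives and ran from -0.63 to 0.19. Among the positive members were the granule protein Ltf at 1.32, the chemokine receptor Cxcr2 at 0.56 and Ngp at 0.31. Mmp8, the neutrophil collagenase, changed by 4.91 and 4.90, but its interaction of -0.01 had an interval of -2.28 to 2.27. S100a8, an abundant granulocyte calcium-binding protein, read 11.13, 10.95 and 10.51 and then 13.92, 14.35 and 13.71 in wild type, and 12.02, 11.44 and 11.23 and then 13.91, 14.49 and 13.87 in GADD45-/- lungs. Its ventilated groups overlapped and its SB groups did not, which gave -0.61 (interval -1.38 to 0.16), and the receptor Csf3r had -0.91. In SB 15 of the 18 markers were higher in GADD45-/- than in wild type lungs. Slfn4, a myeloid Schlafen gene, had -0.76.

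Macrophage and monocyte markers had a median of -0.21 over 15 genes, 4 positive, with 2 called higher after VILI. The scavenger receptor Marco had -1.02, the chitinase-like Chil3 had -0.73 and lysozyme Lyz2 had -0.21. T and NK cell markers were the list with the most uniform sign apart from fat markers, negative in 10 of 10 measured genes with a median of -0.45 and 3 at an unadjusted p below 0.05, though 0 were called and 0 were bounded. Gzma, a granule protease of cytotoxic cells, read 8.71, 8.06 and 8.92 in wild type SB, 10.13, 9.33 and 8.84 in wild type VILI, 9.98, 8.92 and 9.10 in GADD45-/- SB, and 8.97, 8.86 and 8.37 in GADD45-/- VILI. Its groups overlapped, with an interaction of -1.47 (unadjusted p = 0.0146), and Gzmb and Nkg7 had -1.19 and -0.98.

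The T and NK list mean ran from 5.51 to 6.31 in wild type SB and from 5.91 to 6.77 in wild type VILI, and from 6.39 to 6.85 and 6.24 to 7.08 in the 2 GADD45-/- groups, so the SB groups did not overlap. Without both GADD45-/- replicate 3 arrays the list median was -0.73. B cell markers had a median of -0.0007 over 13 genes, 6 positive, and -0.0023 without those arrays, but it ran from -0.65 to 0.84 over the 25 alternatives and changed sign in 8, with Cxcr5 at 1.07, Ighm at 0.82 and Cd79a at -0.62 under intervals too wide to bound. Cell cycle genes had 0.34 over 16 genes, 14 positive, but -0.16 without the same arrays and -0.45 without GADD45-/- VILI replicate 3 alone, where the list mean was 9.04 against 6.76 to 7.66 on the others. Mcm3, Mcm6 and Mcm2, helicase subunits of DNA replication, had 0.45, 0.35 and 0.48. Bpgm, the 1 measured erythroid marker, had 0.05.

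Markers of structural lung cells had list medians near 0, and 0 of them were called for the interaction. The bounded shares were 71.4% (endothelial), 81.2% (type II), 86.7% (type I) and 78.6% (club), against 75.1% of all genes. Positive shares, in the same order, were 35.7%, 12.5%, 60% and 21.4%, against 60.5% of all genes. The type II median ran from -0.25 to -0.0085 over the 25 alternatives. Endothelial markers had a median of -0.09 over 28 genes, 10 positive, with 14 called lower after VILI and 20 bounded. Tek, the angiopoietin receptor, had -0.60 (unadjusted p = 0.0515), Hspa12b had -1.11 and endoglin Eng had -0.34. Type II epithelial markers had -0.12 over 16 genes, 2 positive and 13 bounded, with Sftpa1 at -0.24, the protease Napsa at -0.37 and fatty acid synthase Fasn at -0.62. Type I epithelial markers had 0.02 over 15 genes, 9 positive and 13 bounded, with Pdpn at 0.61, Cav1 at -0.21 and Igfbp2 at 0.29. Club cell markers had -0.05 over 14 genes, 3 positive and 11 bounded, with Cckar at -0.61, Lypd2 at 0.30 and Fmo2 at -0.29.

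Fibroblast and smooth muscle markers had a median of 0.06 over 18 genes, 10 positive and 12 bounded (66.7%, against 75.1% of all genes), and 1 member stood out. Eln, which encodes elastin, read 10.66, 10.71 and 10.47 in wild type SB, 11.44, 11.21 and 11.40 in wild type VILI, 9.50, 9.84 and 9.97 in GADD45-/- SB, and 10.02, 9.11 and 9.78 in GADD45-/- VILI. All knockout arrays were below all wild type arrays, and the gap was wider after VILI, where it was called (-1.71, adjusted p = 0.00488), as for 11 of all genes (0.1%). The interaction was -0.87 (interval -1.50 to -0.23, unadjusted p = 0.012), with a second probe set at -2.33. Decorin (Dcn) and desmin (Des) had 0.26 and 0.37.

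Heart and skeletal muscle markers had 0.14 over 14 genes, 10 positive and 1 bounded. Their mean ranged from 8.07 on wild type SB replicate 2 to 10.39 on wild type VILI replicate 3, and Nppa, the atrial peptide, read 2.89 on the former against 9.95 and 10.33 on the other wild type SB arrays. Its interaction of -1.64 was 0.78 without that array, and Acta1 and Myl7 had -0.40 and 0.57. Fat markers were negative in 5 of 5 genes with a median of -0.60, and -0.06 without both GADD45-/- replicate 3 arrays. Cidec, Lpl and Adipoq had -1.13, -0.30 and -1.11.

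The remaining stress lists lay near the value of all genes. Hypoxia and glycolysis had 0.03 over 15 genes, 12 positive and 12 bounded, with Slc2a1, the glucose transporter GLUT1, at 0.82, Pgk1 at 0.34 and adrenomedullin Adm at -1.12. For Adm the ventilated arrays were 8.91, 9.07 and 8.54 in wild type and 7.93, 7.87 and 6.78 in GADD45-/- lungs, without overlap, and the interval was -2.25 to 0.01. Heat shock and unfolded protein response genes had 0.12 over 20 genes, 13 positive, with Hspb1 at -0.74, Dnajb1 at 0.51 and Asns at 0.34. Junction and barrier genes had 0.09 over 19 genes, 11 positive, with Cldn18 at 0.40, Cdh1 at 0.25 and Cldn1 at 0.65.

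The p53 targets, which share their inducer with Gadd45a, had a median of -0.04 over 19 genes, 7 positive and 12 bounded, with 6 called higher after VILI. Aen, an apoptosis nuclease, had 0.75 (unadjusted p = 0.0308) with a second probe set at 0.22. Sesn1 had -0.29 and the death receptor Fas had -0.49. The Gadd45 family and stress kinase partners had 0.0014 over 13 genes, 7 positive and 10 bounded. Map2k4, a kinase that activates JNK, had 0.35 (interval 0.03 to 0.67, unadjusted p = 0.0354) with a second probe set at 0.10. Mapk8, JNK1, had -0.39 with further probe sets at -0.21 and 0.22. The relatives Gadd45b and Gadd45g had 0.13 (interval -0.53 to 0.79) and -0.19. Gadd45a read 8.62, 9.51 and 8.69 and then 9.75, 9.77 and 10.33 in wild type, and 4.87, 6.15 and 4.58 and then 5.87, 6.02 and 5.36 in GADD45-/- lungs. The genotypes were far apart under both treatments, and the interaction of -0.46 (interval -1.65 to 0.73) concerns a transcript that the knockout is made to lack.

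Akt signalling, which the series title names, is measured here only as messenger RNA. Akt1 read 10.999, 11.18 and 11.15 and then 10.68, 10.90 and 11.08 in wild type, and 10.67, 10.82 and 11.24 and then 11.001, 10.67 and 10.81 in GADD45-/- lungs, with an interaction of 0.15 (interval -0.34 to 0.63). Akt2 had 0.18 (interval -0.28 to 0.64). All groups of Akt1 overlapped, and for both genes a difference in response of more than 2-fold lay outside the interval. Other probe sets gave -0.27 for Akt1 and -0.36 and -0.09 for Akt2, so the sign is not settled. The PI3K-Akt pathway list had 0.06 over 30 genes, 18 positive and 24 bounded (80%, against 75.1% of all genes), with the mTOR partner Rptor at 0.36, Igf1 at -0.32 and the regulatory subunit Pik3r1 at 0.22. The ubiquitin ligases and deubiquitinases that act on Akt had 0.12 over 14 genes, 8 positive and 11 bounded, with Stub1 at 0.24, Cyld at 0.25 and Birc2 at 0.31.

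**Figure D5:**
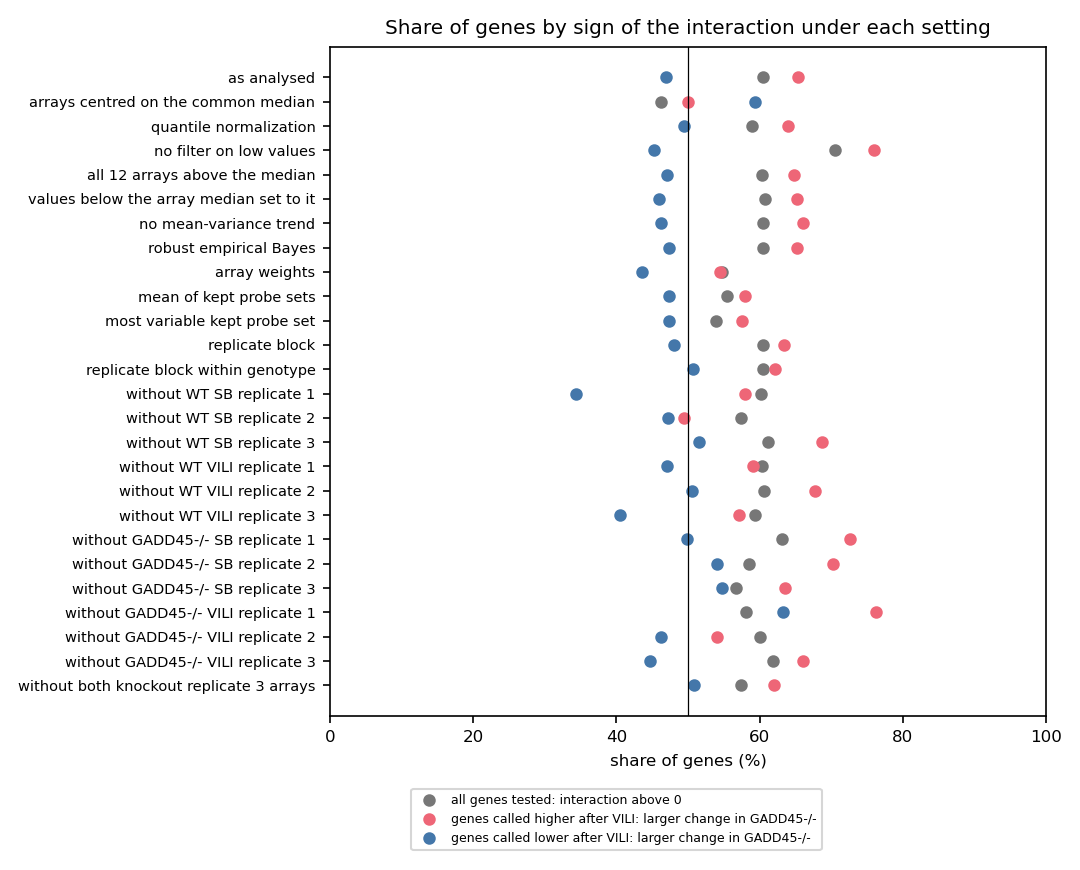
Share of genes (%) by sign of the interaction in the analysis as reported and in 25 alternatives, with all genes tested in grey, genes called higher after VILI in red and genes called lower in blue. The red share is 65.3% as analysed, 50% with centred arrays, and 49.5% to 76.3% when single arrays are left out.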

How the data were processed

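Total RNA from mouse lung was measured on single-colour Affymetrix arrays. The deposited values are log2 expression of 45101 probe sets. MAS5 and GCRMA are named in the submitters' processing notes, with no role, order or version, and the genome build is not given in the sources used here. Without 64 control probe sets, 23082 of 45037 lay above their array's median on at least 3 of 12 arrays. Platform annotation gave 1 symbol to 34945 probe sets, several to 932 and none to 9160, and 3424 kept probe sets without exactly 1 symbol were left out. For each of 10996 genes the kept probe set of highest mean stood for the gene, and 5056 had more than 1.

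Group means were fitted to all arrays with limma 3.58.1 in R 4.3.3, files being read with the package data.table, version 1.17.8, with empirical Bayes moderation and a mean-variance trend (8 residual and 3.36 prior degrees of freedom), two-sided tests and Benjamini-Hochberg adjustment over all genes at 0.05. Intervals are 95%. The procedure was tested on simulated data. The design gives 3 mice per group, and precision is limited by this number of arrays. Same-numbered arrays were not taken as pairs.

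Named genes were those past the threshold for the interaction (none), the 10 responders with the largest moderated t in each direction, the 10 largest averaged changes with an interval within 1 unit, the 5 genes of opposite sign with the smallest p, the 3 members of each list with the largest t, and the Gadd45 and Akt genes. Other list members, and genes of the cytokine, antioxidant, clock and cell marker lists beyond those, were named after their values were seen. The 28 lists and the members were chosen with earlier results of these data known. Motifs were searched in RefSeq promoters of GRCm38.p6, found for 8907 genes tested. Alternatives changed scaling, filter, probe set choice, error model, replicate block and the arrays included.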

Additional observations from a re-analysis of the deposited data

How the results depend on the processing

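With 3 arrays per group only large interactions could have been called, and genes near the lower end of the scale have approximate folds. In the 25 alternatives, 0 genes were called for the interaction, with the smallest adjusted limma p between 0.174 (array weights) and 1, and 148 to 1025 genes at an unadjusted p below 0.05, the highest with array weights and 767 without GADD45-/- SB replicate 3. In these 2 settings and without both GADD45-/- replicate 3 arrays (682) the share was larger than the threshold would give over genes with no interaction. In the other alternatives it was smaller. Testing all 23082 kept probe sets, an alternative chosen after seeing the data, gave 0 calls, 718 at an unadjusted p below 0.05 and a smallest adjusted p of 0.139. Responders bounded within 2-fold numbered 2412 with array weights and 938 with the most variable probe set, against 1439, as the number of responders moved to 3174 and 1570. Leaving out single arrays gave 743 to 1392 bounded responders (743 without wild type VILI replicate 2, 801 without GADD45-/- VILI replicate 2, 821 without wild type SB replicate 3, 865 without wild type VILI replicate 1), 604 to 1438 stronger ones (604 without GADD45-/- VILI replicate 2, 665 and 686 without wild type VILI replicates 2 and 1, 725 without wild type SB replicate 2), and a mean signed interaction from -0.0456 without wild type SB replicate 1 to 0.162 without GADD45-/- VILI replicate 1, with fewer arrays and fewer responders in most of these.

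Deviations of arrays with the same replicate number correlated above 0.1 in 10 of 18 pairs (correlations from -0.163 to 0.526), among them all 3 pairs of the SB groups (0.231 to 0.526), so not every pair did and the numbers were not taken as pairs. With a replicate block 0 genes were called, 448 had an unadjusted p below 0.05, 1279 of 2307 responders were stronger, 1754 were bounded and the mean signed interaction was 0.033. With a replicate block within each genotype the values were 0, 385, 1026, 1314 and 0.043. Without both GADD45-/- replicate 3 arrays 0 were called, 682 had an unadjusted p below 0.05, 914 were stronger and 1164 bounded.

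The 10 genes named as bounded were judged on the bound alone, which 72 of their 249 values under the alternatives lost. Another sign than the reported value was seen in 40 of the 249. Slc2a3, Smad6 and Lrrc75a kept their sign throughout, and the sign of the other small interactions is not settled. Of the 2689 values of the other 104 named genes, 2658 kept their direction and side and 31 reversed. None of the 20 responders named as stronger or weaker reversed. The cause of the reversals was not tested. Bpgm was -0.0332 with centred arrays, -0.0245 with array weights, -0.0036 with the mean of probe sets, -0.304 with the most variable one and -0.0368 without both GADD45-/- replicate 3 arrays. With the mean of probe sets Pik3r1 was -0.251, Cyld -0.0147, Akt1 -0.0598 and Akt2 -0.0902. With the most variable probe set Pik3r1 was -0.671, Cyld -0.333, Akt2 -0.364, Ighm -0.359, Cd40 -0.142, Nr1d2 -0.0364 and Cldn18 -0.179. On unlogged values Cckar was 99.04 and Adipoq 61.74. Leaving out single arrays, the lowest and highest values were -0.062 and 0.127 for Bpgm, -0.0019 and 1.94 for Ighm, -2.94 and 0.775 for Nppa, -2.45 and 0.838 for Adipoq, -0.773 and 0.0145 for Gadd45a, -0.0411 and 0.378 for Gadd45b, -0.414 and 0.0911 for Gadd45g, -1.84 and 0.592 for Cd79a, -0.0312 and 2.02 for Cxcr5 and -0.0513 and 0.827 for Mcm2.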
